A study of Mus musculus with 6 samples.

Results

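The 10 genes described here make up the core of the mammalian circadian clock and one of its first output genes, and were chosen by name: Bmal1, Clock, Per1, Per2, Per3, Cry1, Cry2, Nr1d1, Nr1d2 and Dbp. All 10 were found among the 13283 genes of the expression table, Bmal1 under its older symbol Arntl. The table holds RNA-seq of an immortalized mouse brown preadipocyte line (BAT cells), taken through adipogenic differentiation and given forskolin, which activates adenylyl cyclase and raises cAMP, at 10 µM for 6 h on day 6. The 3 control libraries came from cells that express Cas9 and carry scrambled sgRNA (Scr, labelled WT), and the 3 MICT1 KO libraries came from the same Cas9-expressing line carrying sgRNA against MICT1, a microprotein made in brown adipocytes. MICT1 KO cells were pools made with 2 sgRNAs and sorted by GFP, and the labels do not say which pool a library came from. All 6 cultures had met dexamethasone and IBMX during induction and all 6 were stimulated, so no unstimulated sample bears on these genes. MICT1 RNA was not analysed here, which leaves the KO labels unchecked on the targeted gene.

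The circadian clock is a feedback loop of transcription. BMAL1 and CLOCK form a dimer that binds E-boxes and switches on the Per, Cry, Nr1d and Dbp genes. PER and CRY proteins return to the nucleus and inhibit that dimer, whereas the nuclear receptors REV-ERBα (Nr1d1) and REV-ERBβ (Nr1d2) repress Bmal1 through ROR elements, which receptors of the ROR family activate. DBP, with its relatives TEF and HLF, activates genes through D-boxes, and NFIL3 represses at the same sites. Per1 is also a classical target of cAMP and CREB. Forskolin and dexamethasone are both used to synchronise clocks in culture. In brown fat the clock is known to time thermogenesis, in part through REV-ERBα. The libraries were taken at 1 time, and clock genes cycle within a culture, so a change of level and a shift of phase between the groups cannot be told apart in these data.

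The values are the normalized signal that the authors deposited, read here as estimated reads of each gene over a library-specific size factor. With that factor read from the steps between low values, the libraries held from 15440310 to 17917650 estimated reads. limma-trend compared the groups on log2(value + 1) across 12507 genes (those reaching 10 in 3 or more libraries), with Benjamini-Hochberg adjustment over these genes, and a change is called at an adjusted p under 0.05. Fold changes on this scale understate the change of genes with low values. All 10 clock genes passed that filter. With 3 libraries a group, the smallest p of an exact permutation test of 1 gene is 0.1, and limma, which borrows the spread from other genes, was used for single genes.

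Expression of 7 of the 10 clock genes was lower in MICT1 KO than in Scr libraries, that of Bmal1 was higher, and Cry1 and Cry2 did not pass the test. Of all genes tested, 28.3% were called lower and 28.5% were called higher. At least 2-fold lower were 4 of the 10 (Dbp, Nr1d1, Per3 and Nr1d2), against 5.76% of all genes. The 3 MICT1 KO values lay below the 3 Scr values in the same 7 genes and above them in Bmal1, while 31.2% and 30.9% of all genes had groups that did not overlap in these directions. The median log2 fold change of the 10 genes was -0.79, and that of all genes tested was -0.0053. In the same libraries the summed level of 7 adipocyte markers was 4292 to 5122 CPM (the value scaled to the sum of the library) in Scr and 347 to 588 CPM in MICT1 KO, and that of 12 genes of dividing cells was 1660.4 to 1879 CPM and 2887 to 3152 CPM, and the part of these differences in the clock results was not tested. In bulk libraries fewer cells of a type and less RNA per cell cannot be told apart.

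**Figure D1:**
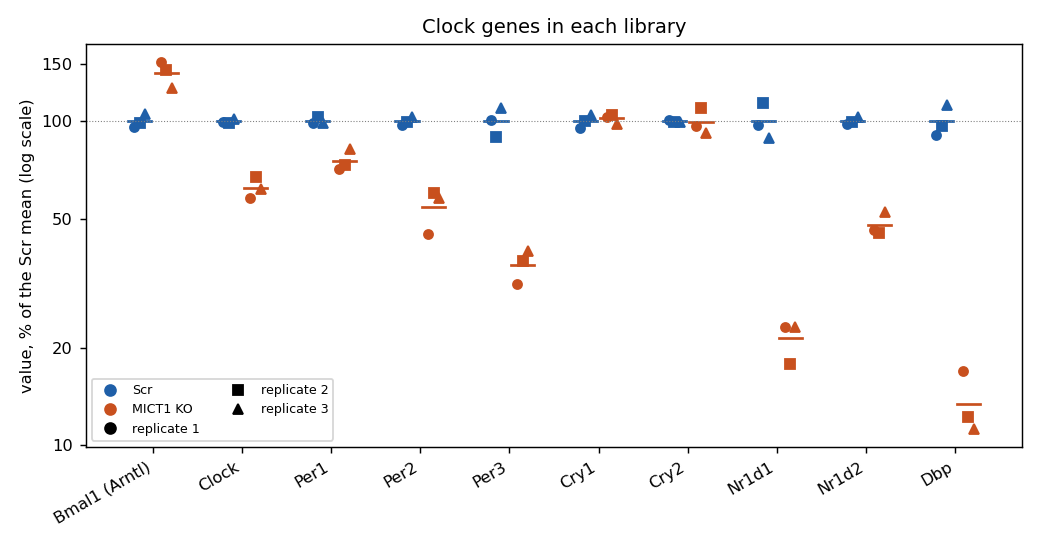
Value of each clock gene in each library as a percentage of its Scr mean, on a log scale, with blue symbols for Scr, orange symbols for MICT1 KO, a symbol shape for each replicate number and a line at the group mean. Dbp fell to 13.5% and Nr1d1 to 21.4% of the Scr mean, Bmal1 stood at 141%, and the Cry1 and Cry2 points of the groups mix.

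Bmal1 and Clock, the activating arm, moved in opposite directions. Bmal1 (chromosome 7, from 113178471 to 113314126, RefSeq on GRCm38.p6) gave 849.6, 873 and 933 over Scr replicates 1 to 3 and 1345, 1276 and 1121 over MICT1 KO replicates 1 to 3. Every MICT1 KO value was above every Scr value. The mean rose from 885 ± 43.0 to 1247 ± 115 (mean ± SD, n = 3 each), with log2 fold change 0.49 (SE 0.078, limma-trend adjusted p = 1.88e-05, 1.41-fold). Clock (chromosome 5, from 76209868 to 76305603) gave 3141, 3113 and 3198 over Scr replicates 1 to 3 and 1821, 2117 and 1951 over MICT1 KO replicates 1 to 3. The groups did not overlap here either, and the Scr libraries lay close together. Clock fell from 3151 ± 43.5 to 1963 ± 148 (mean ± SD, n = 3 each), with log2 fold change -0.69 (SE 0.062, limma-trend adjusted p = 6.63e-09, 1.61-fold).

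The promoters of the clock genes were read in the RefSeq windows on GRCm38.p6, which run from 250 bases before to 50 after a start site. There were 13 windows for 9 of the genes, and Per2 was not searched. On both strands, the ROR element core AGGTCA, which many other nuclear receptors also bind, was found in windows of Bmal1, Clock, Nr1d2 and Per1, and in 16.3% of all 32851 windows. The Bmal1 match starts 31 bases past 1 of its start sites, within transcribed sequence, and the 30 bases around it, chr7:113207531-113207560 on the plus strand, are shown with the core in capitals because Bmal1 was the clock gene that rose.
Bmal1: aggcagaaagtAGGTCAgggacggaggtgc
A match is given as a description of the letters, and whether a receptor binds there was not measured.

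Both nuclear receptors of the negative loop fell, Nr1d1 by more than Nr1d2. Nr1d1 (chromosome 11, from 98767932 to 98775377), which encodes REV-ERBα, gave 1647, 1927 and 1494 over Scr replicates 1 to 3 and 392, 301 and 391 over MICT1 KO replicates 1 to 3. The highest MICT1 KO value was far below the lowest Scr value. Nr1d1 fell from 1689 ± 219 to 362 ± 52.1 (mean ± SD, n = 3 each), with log2 fold change -2.22 (SE 0.10, limma-trend adjusted p = 1.81e-13, 4.67-fold). Nr1d2 (chromosome 14, from 18204056 to 18239106), which encodes the paralog REV-ERBβ, gave 1112, 1133 and 1169 over Scr replicates 1 to 3 and 525, 514 and 599 over MICT1 KO replicates 1 to 3. It fell from 1138 ± 29.1 to 546 ± 46.2 (mean ± SD, n = 3 each), with log2 fold change -1.06 (SE 0.082, limma-trend adjusted p = 5.24e-10, 2.09-fold). The log2 ratio of Nr1d1 to Nr1d2 in deposited signal, which is not corrected for length and so does not order the levels of the genes, was 0.57, 0.77 and 0.35 over Scr replicates 1 to 3 and -0.42, -0.77 and -0.61 over MICT1 KO replicates 1 to 3. The ratio differed by -1.16 between the groups (exact permutation test, two-sided, p = 0.1, the smallest that 3 against 3 libraries can give).

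In the 250 bases before the Nr1d2 start site (chr14:18239107-18239356, minus strand) the core AGGTCA starts 77 bases before the start, in capitals. It is shown because Nr1d2 fell while Bmal1, whose window holds the same core, rose. None of the motifs searched was found in the Nr1d1 window.
Nr1d2: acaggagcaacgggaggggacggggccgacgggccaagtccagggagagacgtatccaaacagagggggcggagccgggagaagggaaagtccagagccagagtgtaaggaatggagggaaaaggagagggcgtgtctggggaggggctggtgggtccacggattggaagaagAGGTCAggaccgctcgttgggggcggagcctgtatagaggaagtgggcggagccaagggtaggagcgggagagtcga

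Dbp (chromosome 7, from 45705100 to 45710203), the D-box activator that serves as a direct output of BMAL1 and CLOCK, fell most of the clock genes. It gave 384, 408 and 474 over Scr replicates 1 to 3 and 71.4, 51.5 and 47.5 over MICT1 KO replicates 1 to 3. The Scr values were all several times the MICT1 KO values, and MICT1 KO replicate 1 was the highest of its group. The mean went from 422 ± 46.7 to 56.8 ± 12.8 (mean ± SD, n = 3 each), with log2 fold change -2.89 (SE 0.18, limma-trend adjusted p = 1.26e-11, 7.40-fold). Among the 12507 genes tested Dbp had the fold change at rank 110 from the lowest, and Nr1d1 the one at rank 172. None of the motifs searched was found in the Dbp window.

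All 3 Per genes, whose products carry the repressor complex into the nucleus, were lower, with log2 fold changes from -0.41 to -1.46. Per1 (chromosome 11, from 69095108 to 69109965) gave 3804, 3979 and 3809.8 over Scr replicates 1 to 3 and 2747, 2829 and 3180.1 over MICT1 KO replicates 1 to 3. The groups did not overlap, although the fall was the smallest of the 7. Per1 fell from 3864 ± 99.2 to 2919 ± 230.2 (mean ± SD, n = 3 each), with log2 fold change -0.41 (SE 0.061, limma-trend adjusted p = 7.89e-06, 1.33-fold). Per2 (chromosome 1, from 91415977 to 91459351) gave 908, 924 and 958 over Scr replicates 1 to 3 and 418, 557 and 538 over MICT1 KO replicates 1 to 3. MICT1 KO replicate 1 was the lowest, and every MICT1 KO value was below every Scr value. Per2 fell from 929.9 ± 25.3 to 504 ± 75.7 (mean ± SD, n = 3 each), with log2 fold change -0.89 (SE 0.099, limma-trend adjusted p = 1.34e-07, 1.86-fold). Per3 (chromosome 4, from 150997018 to 151044707) gave 227, 200.2 and 246 over Scr replicates 1 to 3 and 70.5, 83.2 and 89.1 over MICT1 KO replicates 1 to 3. Per3 was the least abundant of the family and fell most, with log2 fold change -1.46 (SE 0.17, limma-trend adjusted p = 3.73e-07, 2.75-fold).

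Per1 and Per3 are shown because they had the smallest and the largest fall of the family and carry different motifs. The Per1 stretch (chr11:69098699-69098948, plus strand, the 250 bases before 1 of its 2 start sites) holds the E-box CACGTG, in capitals, 166 bases before the start. The Per3 stretch (chr4:151044666-151044915, minus strand) holds the D-box TTATGTAA, in capitals, starting 205 and 158 bases before the start. The E-box was found in 7.15% of all windows, and a D-box (TTATGTAA or TTACGTAA) in 1.06%.
Per1: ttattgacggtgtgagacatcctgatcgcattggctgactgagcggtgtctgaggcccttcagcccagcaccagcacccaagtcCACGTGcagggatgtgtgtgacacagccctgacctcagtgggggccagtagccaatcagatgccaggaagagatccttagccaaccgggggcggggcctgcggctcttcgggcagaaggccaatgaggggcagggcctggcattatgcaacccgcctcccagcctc
Per3: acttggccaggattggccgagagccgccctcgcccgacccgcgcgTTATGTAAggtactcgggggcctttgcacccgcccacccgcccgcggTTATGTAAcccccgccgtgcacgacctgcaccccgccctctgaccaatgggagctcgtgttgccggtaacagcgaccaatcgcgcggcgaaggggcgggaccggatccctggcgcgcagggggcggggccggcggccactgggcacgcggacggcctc
The cAMP response element TGACGTCA was in none of the clock gene windows and in 1.79% of all windows. The shorter core TGACG, which the full element contains, was in windows of Per1, Cry1 and Cry2 and in 20.8% of all windows.

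Cry1 and Cry2 encode the cryptochromes, the strongest repressors of BMAL1 and CLOCK, and did not pass the test. Cry1 (chromosome 10, from 85131700 to 85185054) gave 1783, 1881 and 1961 over Scr replicates 1 to 3 and 1937, 1966 and 1839 over MICT1 KO replicates 1 to 3. Its groups overlapped, with a log2 fold change of 0.030 (SE 0.062, 95% interval -0.099 to 0.16, limma-trend adjusted p = 0.701). Cry2 (chromosome 2, from 92403646 to 92434085) gave 781, 770.3 and 768 over Scr replicates 1 to 3 and 746, 848 and 712 over MICT1 KO replicates 1 to 3. The Scr values of Cry2 fell inside the range of the MICT1 KO values, and its log2 fold change was -0.013 (SE 0.083, 95% interval -0.19 to 0.16, limma-trend adjusted p = 0.907). The intervals bound a difference of either gene on the log2 scale and do not show that the levels were equal. The log2 ratio of Cry1 to Cry2 ran from 1.19 to 1.35 in Scr and from 1.21 to 1.38 in MICT1 KO libraries (exact permutation test, two-sided, p = 0.5).

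The 250 bases before the Cry1 start site (chr10:85185055-85185304, minus strand) hold the same E-box as Per1, here 60 bases before the start and in capitals. The stretch is shown because Per1 fell and Cry1 did not pass the test.
Cry1: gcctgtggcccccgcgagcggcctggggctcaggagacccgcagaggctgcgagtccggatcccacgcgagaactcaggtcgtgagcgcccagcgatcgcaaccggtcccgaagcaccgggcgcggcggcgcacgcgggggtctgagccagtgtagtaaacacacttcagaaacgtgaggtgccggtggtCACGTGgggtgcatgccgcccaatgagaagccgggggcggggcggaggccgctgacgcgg

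Levels can be compared between genes only per length, so the values were also taken as RPKM (the value scaled to exon length and to the sum of the library) with exon lengths of GENCODE vM21. In Scr libraries Per1 was the highest of the clock genes at 41.9 ± 0.618 RPKM (SD, n = 3), followed by Cry1 at 34.3 ± 1.38 and Nr1d1 at 33.5 ± 4.03, which overlapped each other. Clock (14.0 ± 0.327), Nr1d2 (12.9 ± 0.303) and Per2 (9.70 ± 0.248) came next without overlap between neighbours. Per2 and Dbp (8.61 ± 0.921) overlapped, as did Cry2 (7.48 ± 0.178) and Bmal1 (7.19 ± 0.329), and Per3 was lowest at 1.43 ± 0.158 RPKM.

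The order of the RPKM levels was another one in MICT1 KO libraries. Cry1 (35.1 ± 1.153) and Per1 (31.8 ± 2.66) led and overlapped. Bmal1 (10.2 ± 0.887 RPKM) held rank 3, where it had held rank 9 in Scr. From Bmal1 through Clock (8.76 ± 0.702), Cry2 (7.45 ± 0.698), Nr1d1 (7.20 ± 1.02), Nr1d2 (6.19 ± 0.545) and Per2 (5.28 ± 0.821) each gene overlapped the next in the order. Dbp (1.16 ± 0.254 RPKM) and Per3 (0.517 ± 0.0636) were lowest and stood apart from each other and from Per2.

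**Figure D2:**
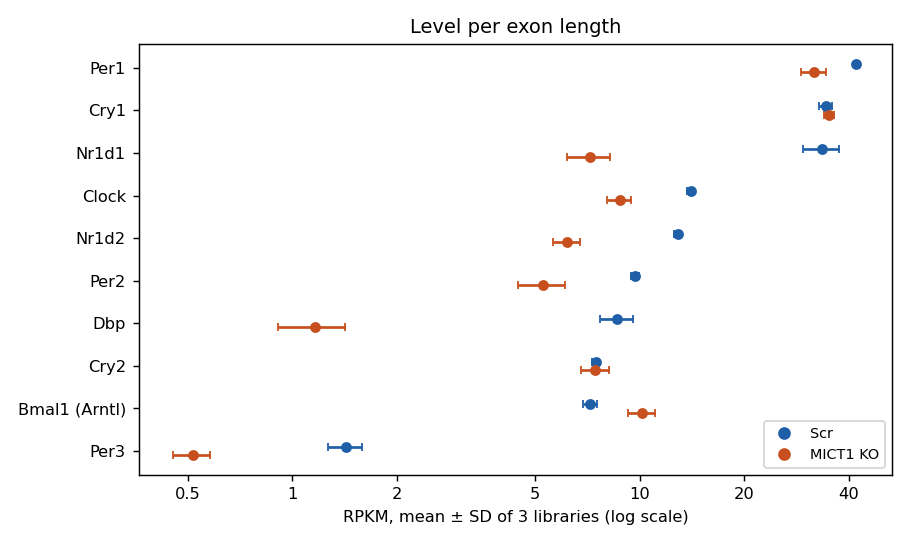
RPKM of the clock genes in Scr (blue) and MICT1 KO (orange) libraries, as the mean of 3 libraries with its SD, on a log scale and ordered by the Scr level. Nr1d1 moved from 33.5 to 7.20 RPKM and Dbp from 8.61 to 1.16 RPKM, whereas the Cry1 and Cry2 points of the groups lie on each other.

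Ratios within a library do not depend on the scaling between libraries, and 9 were taken for these genes, 6 of them with Bmal1 as the numerator, so that they share its values. The log2 ratio of Bmal1 to Nr1d1 was -0.95, -1.14 and -0.68 in the Scr libraries against 1.78, 2.08 and 1.51 in the knockouts, a difference of 2.71. The groups did not overlap in this ratio, which like the others is taken on the deposited signal without correction for length, so that its sign does not order the levels. The log2 ratio of Bmal1 to Dbp was 1.14, 1.10 and 0.98 in the Scr libraries against 4.22, 4.603 and 4.53 in the knockouts, a difference of 3.38. The differences for Bmal1 to Nr1d2, Per1, Per2 and Per3 were 1.55, 0.90, 1.38 and 1.95. Per1 to Per2 differed by 0.49. The groups did not overlap in 8 of the 9 ratios, all but Cry1 to Cry2, and each of these had p = 0.1 by the exact permutation test (two-sided), the smallest possible, or 0.113 after Benjamini-Hochberg adjustment over the 9.

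**Figure D3:**
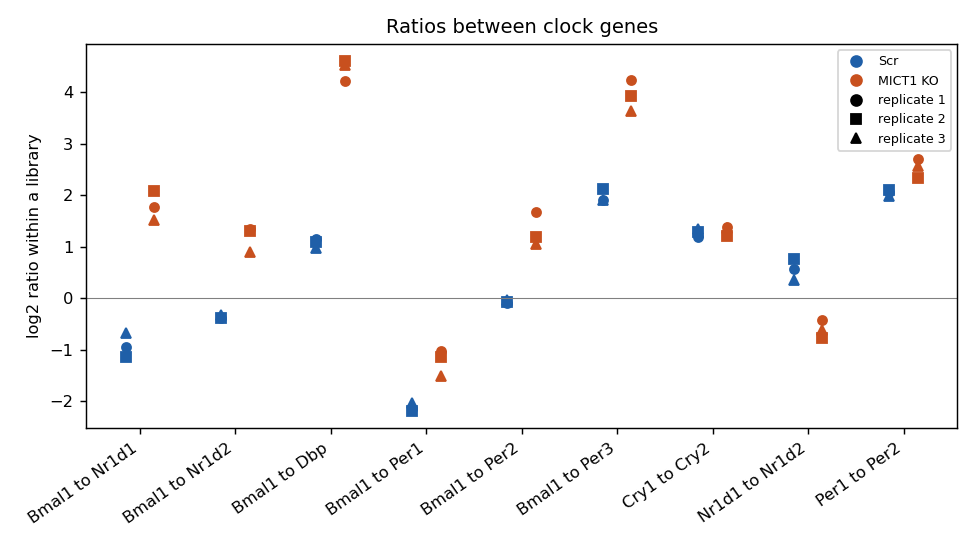
Log2 ratio between pairs of clock genes in each library, with blue symbols for Scr, orange symbols for MICT1 KO and a symbol shape for each replicate number. Ratios with Bmal1 as the numerator were higher in all 3 MICT1 KO libraries, that of Nr1d1 to Nr1d2 was lower, and that of Cry1 to Cry2 overlapped.

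In most clock genes the MICT1 KO libraries spread more widely among themselves than the Scr libraries. On the log2 scale the range over 3 libraries was wider in MICT1 KO for 9 of the 10 clock genes, all but Cry1, and for 53.3% of all genes tested. The range of Per2 was 0.08 in Scr and 0.42 in MICT1 KO, and that of Dbp was 0.30 and 0.58. For Nr1d1 (0.37 and 0.38) and Per3 (0.30 and 0.33) the range was wider by little. The clock genes share the same libraries, so their ranges are not separate observations. Replicate 1 of MICT1 KO held the lowest value of the group for Clock, Per1, Per2 and Per3 and the highest for Bmal1, Dbp and, by a small margin, Nr1d1. Both patterns were noticed in the values and were not tested.

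Some clock genes lie beside or over other genes, and whether the authors' counting used the strand of the reads is not stated. In GENCODE vM21, exons of Nr1d1 overlap those of Thra on the opposite strand by 263 bases, and exons of Dbp overlap those of Sphk2 by 539 bases. Thra, the gene of a thyroid hormone receptor, stood at 759 ± 11.1 in Scr against 494 ± 103 in the MICT1 KO libraries (SD, n = 3 each). Sphk2, which encodes a sphingosine kinase, stood at 758 ± 41.2 against 462 ± 24.97. The log2 fold changes of these neighbours, -0.64 and -0.71, were smaller than those of Nr1d1 and Dbp, and the part of shared reads was not tested. Cry2 overlaps the exons of D930015M05Rik by 295 bases and Bmal1 those of Gm45355 by 33 bases, both on the opposite strand.

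The other transcription factors of the clock loops were mostly lower as well. Of 11 listed and tested, 7 were called lower and 1 higher, against 28.3% and 28.5% of all genes tested. The median log2 fold change of the list was -0.70. Npas2, the paralog of Clock that can also pair with BMAL1, gave 66.3, 102 and 81.4 over Scr replicates 1 to 3 and 20.02, 20.02 and 11.4 over MICT1 KO replicates 1 to 3. Its groups did not overlap, with log2 fold change -2.23 (SE 0.32, limma-trend adjusted p = 5.80e-06). Bhlhe40 (DEC1), which represses at E-boxes, was at 162 RPKM in Scr and 64.3 RPKM in MICT1 KO libraries. It fell by 1.34 on the log2 scale (SE 0.062, limma-trend adjusted p = 1.16e-13).

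Of the receptors that activate through ROR elements, Rora fell and Rorb rose. Rora gave 824, 839 and 812 over Scr replicates 1 to 3 and 449, 582 and 505 over MICT1 KO replicates 1 to 3, with log2 fold change -0.70 (SE 0.094, limma-trend adjusted p = 2.24e-06). Rorb gave 611, 912 and 737 over Scr replicates 1 to 3 and 1564, 1529 and 1439.8 over MICT1 KO replicates 1 to 3. It was the one member of the list that rose, with log2 fold change 1.02 (SE 0.10, limma-trend adjusted p = 2.78e-08). On the D-box side, both the activator Tef (-0.88, limma-trend adjusted p = 1.24e-09) and the repressor Nfil3 (-0.78, adjusted p = 1.92e-09) fell. Bhlhe41 (DEC2) fell too (-0.66, limma-trend adjusted p = 2.53e-06). Hlf, Ciart and Arntl2 (BMAL2) did not pass, with log2 fold changes of 0.025 (95% interval -0.35 to 0.40), 0.084 (-0.079 to 0.25) and -0.046 (-0.76 to 0.67), and the intervals of Hlf and Arntl2 are wide.

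Enzymes that modify clock proteins moved in both directions. Of 17 listed, 16 were tested (Fbxl21 was below the filter). Of these 10 were lower and 3 higher, against 28.3% and 28.5% of all genes tested. The median log2 fold change of the list was -0.18. Fbxw7, whose ubiquitin ligase subunit marks REV-ERBα for degradation, rose from 415 ± 19.2 to 975 ± 21.2 (mean ± SD, n = 3 each), with log2 fold change 1.23 (SE 0.084, limma-trend adjusted p = 7.17e-11). The subunits of AMP-activated protein kinase that lead CRY to degradation, Prkaa1 (-0.69, limma-trend adjusted p = 4.73e-08) and Prkaa2 (-0.53, adjusted p = 0.00801), were lower, as was Gsk3b (-0.43, adjusted p = 1.21e-06). The casein kinases that phosphorylate PER proteins, named here after their values were seen, were lower by little, Csnk1d by a log2 fold change of -0.14 (limma-trend adjusted p = 0.0239) and Csnk1e by -0.17 (adjusted p = 0.0372). Neither call held in every fit. Csnk1d did not pass without Scr replicate 2 (limma-trend adjusted p = 0.0968), MICT1 KO replicate 1 (0.0558) or MICT1 KO replicate 3 (0.0581). Csnk1e did not pass without Scr replicate 2 (limma-trend adjusted p = 0.0995), Scr replicate 3 (0.172), MICT1 KO replicate 1 (0.0525) or MICT1 KO replicate 3 (0.115), nor with quantile normalization (0.104). The phosphatase genes Ppp5c (0.32) and Ppp1ca (0.19) were the others that rose. Btrc, a ubiquitin ligase subunit for PER (-0.072), and the deubiquitinase gene Usp2 (0.12) did not pass.

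Among partners of the clock complexes, 7 of 12 were lower and 1 higher, against 28.3% and 28.5% of all genes tested. The median log2 fold change of the list was -0.20. The corepressor gene Ncor1, which serves REV-ERB receptors, fell (-0.41, limma-trend adjusted p = 9.51e-06). Crebbp (-0.41, limma-trend adjusted p = 0.000132) and Ep300 (-0.30, adjusted p = 0.00103), which encode acetyltransferases used by CLOCK and BMAL1, were lower, as was Timeless (-0.36, adjusted p = 4.63e-05). Hdac3 (-0.0014), the deacetylase recruited with NCOR1, Tipin (-0.023), Kmt2a (0.063) and Sirt1 (0.15) did not pass.

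Genes known as outputs of the clock were lower in 8 and higher in 2 of 13 tested cases. Of all genes tested, 28.3% were lower and 28.5% higher. The median log2 fold change of the list was -0.60. The largest falls were those of Pnpla2 (-3.40, limma-trend adjusted p = 2.75e-17), the triglyceride lipase of lipolysis, Lpin1 (-1.94, adjusted p = 7.89e-13), which makes diacylglycerol, Alas1 (-1.46, adjusted p = 2.09e-13), the rate-limiting enzyme of haem synthesis, and Por (-0.88, adjusted p = 7.66e-11), the reductase of cytochromes P450. Pnpla2 and Lpin1 are also genes of adipocyte lipid metabolism. Tsc22d3 rose (0.53, limma-trend adjusted p = 0.000488), and Ppara (-0.60), Usp2 (0.12) and Cdkn1a (0.0013) did not pass. Gys2 was not analysed here.

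**Figure D4:**
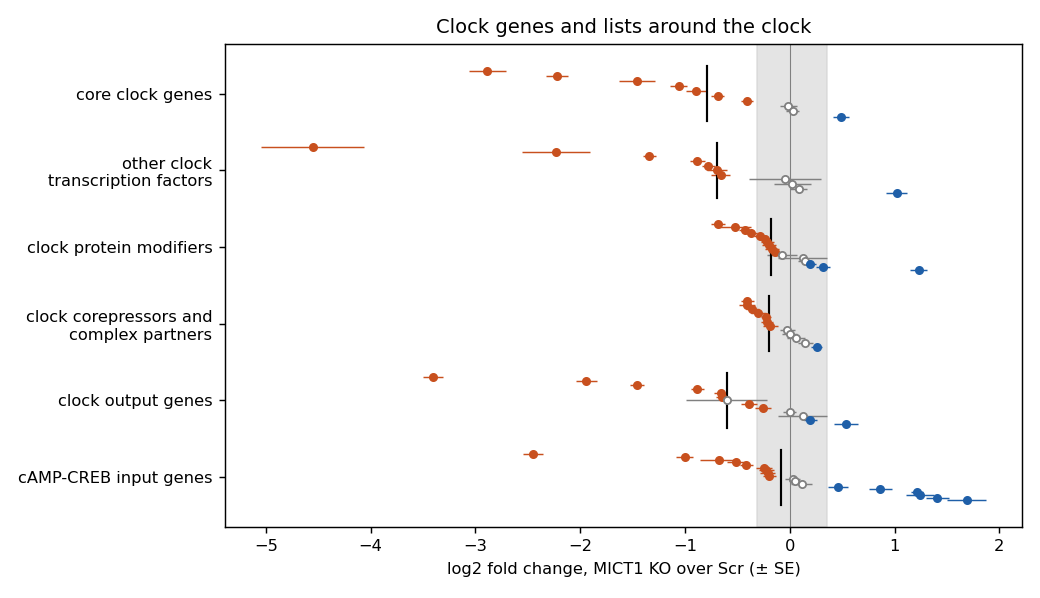
Log2 fold change of MICT1 KO over Scr with its standard error for each gene of 6 lists, with filled symbols for an adjusted p under 0.05 (orange lower, blue higher), open grey symbols for genes that did not pass, a black bar at the list's median and a grey band over the middle 50% of all genes tested (-0.31 to 0.36). The medians of the clock genes (-0.79), the other clock transcription factors (-0.70) and the output genes (-0.60) lie left of the band.

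Genes of the route from cAMP to Per1 did not move together. Of all genes tested, 28.3% were called lower and 28.5% higher. Of 18 genes for CREB, its coactivators, the salt-inducible kinases and genes quickly induced through cAMP, 9 were lower and 6 higher. The median log2 fold change of the list was -0.085. Those higher were all genes quickly induced by cAMP, led by Nr4a2 (1.69, limma-trend adjusted p = 1.14e-07), Dusp1 (1.41, adjusted p = 8.49e-10) and Fos (1.24, adjusted p = 7.11e-08), followed by Junb (1.21), Nr4a3 (0.86) and Nr4a1 (0.46). Fosb (-0.67), induced in the same way, was called lower, as was Per1. Its groups overlapped, because the Fosb value of Scr replicate 3 (245) lay inside the MICT1 KO range of 219 to 263. Pde4b (-0.41) and Pde4d (-1.001), also among the 18 genes, were called lower, and their groups did not overlap. Sik2, a kinase that holds CREB coactivators in the cytoplasm, fell from 2129 ± 171 to 390.02 ± 60.2 (mean ± SD, n = 3 each), with log2 fold change -2.45 (SE 0.095, limma-trend adjusted p = 7.53e-15). The coactivator genes Crtc1 (-0.21), Crtc2 (-0.22) and Crtc3 (-0.51) and the kinase genes Sik1 (-0.20) and Sik3 (-0.24) were called lower too. The calls of Crtc1, Sik1 and Sik3 did not hold in every fit with a library left out, and the Sik1 groups overlapped. The transcripts of Creb1 (0.027), Atf1 (0.053) and Crem (0.11) did not pass. Scr replicate 3 had the lowest Scr value of Fos (445 against 767 and 730), Dusp1 (1113 against 1671 and 1743) and Nr4a2 (149 against 297 and 307). Its Per1 value (3809.8) was close to that of Scr replicate 1 (3804) and below that of Scr replicate 2 (3979).

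The identity of the cultures was checked on marker genes, whose calls stand beside 28.3% lower and 28.5% higher of all genes tested. All 7 adipocyte markers were called lower in MICT1 KO, most of all the hormone gene Adipoq (log2 fold change -6.66) and the lipid droplet genes Plin1 (-5.93) and Cidec (-5.51), followed by the hormone-sensitive lipase gene Lipe (-3.70). Of 7 brown adipocyte markers 3 were in the table and their sum was 7.31 to 9.50 CPM in Scr and 7.95 to 10.8 CPM in MICT1 KO libraries, with Ucp1 called lower. Ucp1, the thermogenic uncoupling protein, was at only 0.938 RPKM in Scr, Ppargc1a was below the filter, Cox7a1 did not pass, and Cidea, Prdm16, Dio2 and Elovl3 were not analysed here. Genes of dividing cells were higher in 12 of 12 cases, led by Ccnb2 (0.96), Mki67 (0.86), Kif11 (0.86) and Cdc20 (0.84). Of 6 tested preadipocyte and fibroblast markers 3 were lower (Dlk1 by a log2 fold change of -3.47, Dpt by -1.34 and Pdgfra by -0.19) and 3 higher (Ly6a by 1.39, Col1a1 by 0.77 and Pdgfrb by 0.48). Cd34 was below the filter and Thy1 was not analysed here. The sum over the list was 1339 to 1475 CPM in Scr and 2032 to 2303 CPM in MICT1 KO libraries. Most of that sum was Col1a1, with a mean deposited signal of 17955 in Scr and 30595 in MICT1 KO libraries. Pdgfra came next in Scr, at 2307 against 2025 in MICT1 KO. Macrophage markers summed to 6.33 to 9.20 CPM in Scr and 7.91 to 9.86 CPM in MICT1 KO libraries. Csf1r, Cd68 and Mrc1 did not pass (limma-trend adjusted p from 0.253 to 0.967), and Ptprc, Adgre1 and Lyz2 were not analysed here. The endothelial marker Cdh5 was at 0.368 to 0.725 CPM in Scr and at 1.59 to 2.03 CPM in MICT1 KO libraries and was called higher (log2 fold change 1.71), while Pecam1, Kdr and Tek were not analysed here. The muscle markers Des and Acta1 summed to 3.79 to 4.79 CPM in Scr and 3.37 to 5.74 CPM in MICT1 KO libraries and did not pass, and Myod1, Myog, Ckm and Myh1 were not analysed here.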

How the data were processed

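RNA-seq of 3 Scr and 3 MICT1 KO libraries was analysed, with groups and replicate numbers from the sample titles. The authors deposited a normalized signal per gene, with 1 column per library. The methods name Partek for the alignment to NCBI38/mm10, and the submitters' processing notes also name STAR and DESeq2. The annotation and the counting are not given in the sources used here. Libraries were strand-specific and made from total RNA, per the methods. Of low values (under 20), 88.8% to 90.3% were whole multiples (tolerance 0.01) of a step specific to the library, too few to recover counts, so no count test was run. The table has no value of 0, so a gene lost in 1 group would be missing from it.

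Values were compared with limma-trend (limma 3.58.1, R 4.3.3) as log2(value + 1) across the 12507 genes with at least 10 in at least 3 libraries, with Benjamini-Hochberg adjustment, after the functions were tested on simulated data. RPKM and CPM used the sum of the listed values, and RPKM the exon length of GENCODE vM21 (12937 genes, 97.4%). Clock genes were all named, with the 4 largest called changes of each other list, and further list members were named after their values were seen. Some single genes counted in these lists are not reported here. Members, lists and tests were chosen with earlier results of these data known. Alternatives were library size scaling, quantile normalization, limma-voom, other filters and pseudocounts, the replicate number as a block, and each library left out in turn. Deviations of same-numbered libraries from their group means correlated at -0.024, -0.015 and 0.064 across genes, so the numbers were not taken as pairs. Nothing in the labels says that the libraries are separate cultures, while the methods call all replicates biological; p-values measure the spread between these libraries.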

Additional observations from a re-analysis of the deposited data

How the results depend on the processing

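The calls of the 8 clock genes past the threshold held in all 14 alternatives run, except that Per3 was below the filter at a maximum RPKM of 4 and was not tested there, which left 6 clock genes lower. Under library size scaling, quantile normalization and limma-voom the median of all genes moved by less than 0.1 on the log2 scale. Log2 fold changes with each library left out ran from -3.06 to -2.77 for Dbp, -2.31 to -2.10 for Nr1d1, -0.47 to -0.36 for Per1 and 0.43 to 0.57 for Bmal1. With the replicate number as a block 7 clock genes were lower and 1 was higher, and the numbers do not pair the libraries.

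Fold changes near 0 that had not passed changed sign with a library left out: Cry1 (range -0.0054 to 0.063), Cry2 (-0.086 to 0.040), Arntl2 (-0.21 to 0.27), Hlf (-0.084 to 0.088), Btrc (-0.16 to 0.037), Usp2 (-0.045 to 0.31), Hdac3 (-0.029 to 0.037), Tipin (-0.080 to 0.032), Kmt2a (-0.034 to 0.14), Cdkn1a (-0.073 to 0.046) and Creb1 (-0.045 to 0.079). Quantile normalization turned Hlf (-0.019), Hdac3 (0.038), Tipin (0.032) and Cdkn1a (-0.077), library size scaling turned Hdac3 (0.0029), and limma-voom turned Hdac3 (0.0033). The cause was not tested. Of the other clock transcription factors 4 rather than 7 were lower with the filter at a maximum RPKM of 4, where fewer genes are tested. Quantile normalization called 2 partner genes higher rather than 1, and 1 output gene rather than 2. The count of higher output genes ran from 1 to 2 with each library left out, and was 1 without Scr replicate 1 and without MICT1 KO replicate 3. Ratios between clock genes moved by less than the spread between replicates with pseudocounts of 0.5 and 5. Groups of 3 are too small for a check of single outlying libraries. At this depth Ucp1 rests on few reads in MICT1 KO libraries.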
